A study of Homo sapiens with 18 samples.

Results

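Axon guidance ligands and receptors of the netrin and semaphorin families were followed through the 6 groups of an RNA-seq experiment in Hep3B cells, a human hepatoma line. The set was a list of 10 gene symbols, of 36684 in the table: the ligands NTN4, SEMA3C, SEMA3E and SEMA3F, the netrin receptors UNC5B and NEO1, the plexins PLXND1 and PLXNA1, and the neuropilins NRP1 and NRP2. The genes were chosen by family name and selected on their measured counts in these 18 libraries, with the differences between groups known, so its levels and calls describe these genes and are not independent evidence about the families. All 10 passed the filter on low counts, and all 10 also passed it when the RES libraries, or the RES and FUCO-2 libraries, were left out of the filter.

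The groups, of 3 libraries each, were untreated Hep3B cells (Con), cells given free fatty acids as a model of steatosis (Model), cells given free fatty acids with fucoxanthin, a marine carotenoid, at 0.5, 1 or 2 μM (FUCO-0.5, FUCO-1 and FUCO-2), and cells given free fatty acids with RES (Resmetirom, an agonist of thyroid hormone receptor beta). All groups except Con therefore share the fatty acids. The dose of RES, the fatty acid concentration and the treatment times of these libraries are not given in the sources used here. The methods of the study call the 3 libraries of a group biological replicates. All came from 1 tumour-derived line, so p-values measure the spread between cultures of that line.

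Netrins are secreted, laminin-like proteins that attract or repel cells through DCC, neogenin and the UNC5 receptors, and UNC5 receptors are also known as dependence receptors, which signal cell death when no netrin is bound. Class 3 semaphorins are secreted as well, and most of them bind a neuropilin, which pairs with a plexin that signals inside the cell, while SEMA3E can bind PLXND1 directly. Outside the nervous system both families are known for roles in blood vessels, and neuropilins also act as co-receptors for VEGF. In liver they are known mainly from endothelial and stellate cells, and hepatocytes and hepatoma cells express some members.

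The 250 bases before the annotated start are shown for SEMA3E, NRP2 and SEMA3C, 3 of the genes whose FUCO-2 and RES libraries all lay above those of Model. Sequences are from RefSeq (GRCh38.p14), 5′ to 3′ on the strand of the gene, with capitals where a searched motif matched on either strand. SEMA3E lies on the minus strand (window chr7:83649140-83649389), NRP2 on the plus strand (chr2:205682251-205682500) and SEMA3C on the minus strand (chr7:80922390-80922639).
SEMA3E: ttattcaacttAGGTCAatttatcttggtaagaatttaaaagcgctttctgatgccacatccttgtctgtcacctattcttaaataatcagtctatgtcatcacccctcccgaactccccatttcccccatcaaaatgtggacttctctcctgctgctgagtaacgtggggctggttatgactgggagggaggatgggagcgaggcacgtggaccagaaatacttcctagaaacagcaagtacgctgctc
NRP2: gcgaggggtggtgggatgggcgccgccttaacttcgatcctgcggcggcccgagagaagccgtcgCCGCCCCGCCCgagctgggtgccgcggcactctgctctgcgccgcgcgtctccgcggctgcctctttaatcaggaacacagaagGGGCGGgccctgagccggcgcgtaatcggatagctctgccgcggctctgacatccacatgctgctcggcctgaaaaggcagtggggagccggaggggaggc
SEMA3C: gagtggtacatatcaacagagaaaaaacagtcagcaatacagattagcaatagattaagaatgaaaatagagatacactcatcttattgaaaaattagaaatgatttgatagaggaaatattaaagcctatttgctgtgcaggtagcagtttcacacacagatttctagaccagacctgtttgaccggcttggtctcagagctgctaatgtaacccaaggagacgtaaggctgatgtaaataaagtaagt

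The capitals in the SEMA3E window are the nuclear receptor half-site AGGTCA, found in 12.1% of 35116 RefSeq windows of this length. Those in the NRP2 window are GC boxes (GGGCGG, 42.6% of windows), of which one pair overlaps by a base. The GC content was 46.4% for SEMA3E, 70.0% for NRP2 and 36.4% for SEMA3C, against a median of 58.0% over all windows. The SEMA3C window held none of the motifs searched, which were these and the EGR motif GCGNGGGCG (8.41%), the TEAD motif GGAATG (11.9%), the AP-1 motif TGANTCA (6.57%) and TATAAA (10.7%), each on both strands. A second annotated start of SEMA3C had a window with GC boxes and an EGR motif. Where GC boxes and EGR motifs share bases, both were counted. Of the 10 genes, 8 had a window, and UNC5B and NRP1 had none. Over the 13 windows of these 8 genes, which include further annotated starts, AGGTCA was found in 4, the EGR motif in 5, GGGCGG in 8, GGAATG and TATAAA in 1 each and the AP-1 motif in 0. A match describes the letters only.

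Each library held 16916688 to 23083498 counts. The RES libraries stood apart from all others on the leading principal component of log2 CPM, which held 47.0% of the variance (61.6 to 64.3 in RES against −23.7 to 0.297 elsewhere). Of 8 hepatocyte markers, all were at or above 1 CPM in every group, which fits the label of the line. Their summed level had a median of 57373 CPM in Con, 47459 in Model, 45213, 42210 and 33803 at rising FUCO, and 14129 in RES. ALB made up most of this sum, and the other markers did not all follow it. FGB had a mean of 112 CPM in Model, 44.1 in FUCO-2 and 150 in RES, while the means of TTR (179 and 209 CPM) and SERPINA1 (2957 and 3475 CPM) were higher in Model than in Con. Summed endothelial markers reached at most 4.21 CPM, with CDH5 and EMCN at 0 counts in all libraries. Summed fibroblast or stellate cell markers ran from 11.3 to 36.7 CPM with COL3A1 at 0. Leukocyte markers ran from 5.14 to 22.7 CPM with CD163 at 0, and neuron markers from 39.9 to 120 CPM. A few genes made up most of these 3 sums. PDGFRB and LUM had means of 18.3 and 13.6 CPM in Con, and SNAP25 had 103 CPM in Model and 25.4 in RES. LYZ had a mean of 3.16 CPM in Con and 15.9 in Model, and CD14 had 3.58 in Model and 11.7 in RES. The hepatocyte sum was lower in the same groups in which several genes below moved, and its part in those results was not tested. In bulk RNA of 1 line, fewer cells that express these markers and less of their RNA per cell cannot be told apart. Within groups, Con replicate 1 and FUCO-2 replicate 1 differed most from their partners among the libraries of Con and FUCO-2 (chi-square per degree of freedom 13.2 to 19.3, against 2.30 and 5.72 between the other two).

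Levels are CPM after TMM normalisation. Fold changes and adjusted p-values are from edgeR's quasi-likelihood test of all 18 libraries, adjusted by the Benjamini-Hochberg method over the 14557 genes tested. A gene passed at an adjusted p under 0.05, and a DEG also had an absolute log2 fold change over 1, the threshold in the study's methods. The 5 main comparisons were Model against Con and each of the other 4 groups against Model, so that 4 of them share the Model libraries.

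Per kilobase of transcript, the 10 genes spanned a wide range of levels. In Model, NRP1 was at 17.8 CPM per kb, PLXNA1 at 13.8, PLXND1 at 12.6 and SEMA3F at 12.0. NTN4 (5.66), NEO1 (5.0) and SEMA3C (3.23 CPM per kb) were lower, and NRP2 (0.204), SEMA3E (0.194) and UNC5B (0.0430 CPM per kb) were lowest. With RES, UNC5B reached 1.40 CPM per kb, above NRP2 (0.575) and SEMA3E (0.672), while NRP1 was at 9.36 CPM per kb. These lengths are of 1 annotated transcript a gene, and the isoforms used in Hep3B cells were not measured.

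UNC5B, the netrin receptor (chromosome 10, 71212570 to 71302864, plus strand, GRCh38.p14), was close to undetected outside FUCO-2 and RES. Its level was 0.347, 0.597 and 0.595 CPM in Con (6, 10 and 11 counts) and 0.165, 0.501 and 0.217 CPM in Model (3, 9 and 4 counts). FUCO-0.5 gave 0.220, 0.314 and 0.223 CPM and FUCO-1 gave 0.545, 0.219 and 0.343 CPM. These 4 groups overlapped one another, except that every FUCO-0.5 library lay below every Con library. FUCO-2 gave 2.07, 1.28 and 0.868 CPM (36, 24 and 15 counts), all above every library of the 4 groups before it, and RES gave 10.1, 10.7 and 8.12 CPM (249, 198 and 174 counts), all above FUCO-2.

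As a description, without a test because UNC5B heads the list, its level was 4.71-fold higher in FUCO-2 than in Model (log2 fold change 2.24 ± 0.41, SE, 95% interval 1.40 to 3.07) and 32.1-fold higher in RES (5.0 ± 0.30, SE, 4.38 to 5.63). Ranked by fold change, UNC5B was the 10th highest of 14557 genes in FUCO-2 against Model and the 2nd highest in RES against Model. As UNC5B was chosen with such differences known, nothing is read from these ranks. The folds and ranks also rest on only 3, 9 and 4 counts in the Model libraries. Both comparisons use the same Model libraries. Against Con, the log2 fold change was −0.80 ± 0.50 (SE) in Model, 1.44 ± 0.36 in FUCO-2 and 4.21 ± 0.27 in RES. Leaving out 1 library at a time or changing the processing kept the FUCO-2 value between 1.86 and 2.84 and the RES value between 4.72 and 5.61. UNC5B-AS1, a transcript that overlaps UNC5B, had 0 counts in all libraries.

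**Figure D1:**
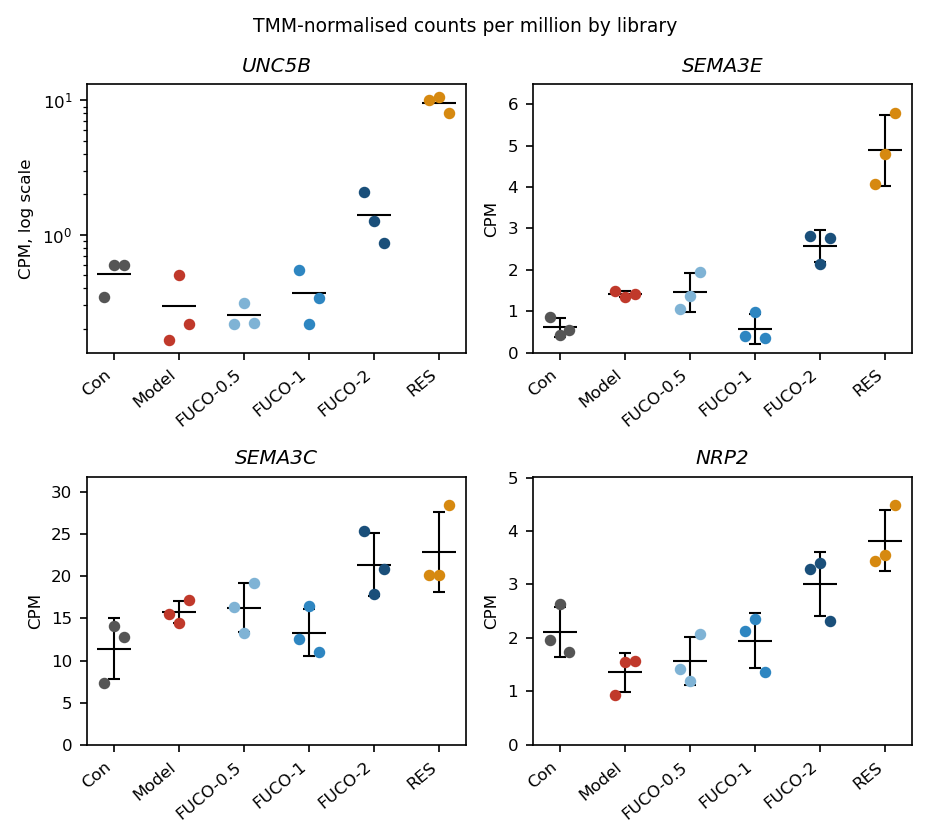
Level of UNC5B, SEMA3E, SEMA3C and NRP2 in CPM (y axis, a log scale for UNC5B) in the 3 libraries of each of the 6 groups (x axis). Points are libraries and wide bars the means, with whiskers of 1 SD (none on the log scale). RES libraries of UNC5B sit between 8.12 and 10.7 CPM and FUCO-2 libraries between 0.868 and 2.07 CPM, above the other 4 groups.

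NEO1 (neogenin, the receptor for netrins and RGM proteins, on chromosome 15, 73051692 to 73305206) rose only with RES among the 5 main comparisons. Its level was 24.9, 36.4 and 35.5 CPM in Con, 33.8, 36.4 and 36.4 in Model, and 29.2 to 36.5 over the 9 FUCO libraries. With RES it was 48.3, 43.5 and 46 CPM, above every other library. The log2 fold change of RES against Model was 0.37 ± 0.10 (SE, adjusted p = 0.00421). The other 4 comparisons gave log2 fold changes between −0.15 and 0.14, none of which passed. The value of Model against Con was 0.14, and −0.017 without Con replicate 1, the lowest library.

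NTN4, a secreted netrin of basement membranes (chromosome 12, 95657807 to 95791155), was at 14.9, 18 and 16 CPM in Con and 20.1, 21.5 and 19.9 CPM in Model, with no overlap. The log2 fold change of 0.33 ± 0.10 (SE) passed (adjusted p = 0.0244). It no longer passed without Con replicate 1 (0.0813), Con replicate 3 (0.0844), Model replicate 1 (0.0508) or Model replicate 2 (adjusted p = 0.0961). FUCO-0.5 held 17.3, 22.0 and 19.0 CPM, around Model. FUCO-1 held 15.6, 17.7 and 17.5 CPM, all below Model (log2 fold change −0.28 ± 0.10, SE, adjusted p = 0.144, not passed). FUCO-2 (21.4, 17.9 and 20.1) and RES (21.5, 21.1 and 21.6 CPM) differed from Model by −0.05 and 0.06 on the log2 scale, with 95% intervals of −0.25 to 0.16 and −0.14 to 0.26.

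SEMA3E, the class 3 semaphorin that binds PLXND1 (chromosome 7, 83363238 to 83649139, with the upstream sequence printed above), was low in Con and FUCO-1 and higher elsewhere. It held 0.867, 0.418 and 0.541 CPM in Con and 1.48, 1.33 and 1.41 CPM in Model, above all Con libraries and a DEG (log2 fold change 1.2 ± 0.35, SE, adjusted p = 0.0194). FUCO-0.5 was at 1.04, 1.36 and 1.95 CPM, around Model, and FUCO-1 at 0.396, 0.983 and 0.343 CPM, below all Model libraries (−1.29 ± 0.35, SE, adjusted p = 0.0411, a DEG). The doses did not order the level: FUCO-2 was at 2.82, 2.13 and 2.78 CPM, above all Model libraries (0.86 ± 0.27, SE, adjusted p = 0.0245) and above FUCO-1 (2.15 ± 0.32, SE, adjusted p = 0.000157).

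With RES, SEMA3E reached 4.08, 4.79 and 5.78 CPM, above every other library (log2 fold change against Model 1.79 ± 0.24, SE, adjusted p = 1.50e-06). The value with RES passed under every alternative tried that kept SEMA3E. The others rested on few counts. Model against Con no longer passed without Con replicate 2 (adjusted p = 0.0999), Con replicate 3 (0.0801), Model replicate 1 (0.0563) or Model replicate 3 (0.0521). FUCO-1 against Model was lost without any of Model replicates 1, 2 and 3 (0.119, 0.100 and 0.113) or without FUCO-1 replicate 1 or 3 (adjusted p = 0.170 and 0.183), and FUCO-2 against Model without any Model library or without FUCO-2 replicate 1 or 3 (adjusted p = 0.0573 to 0.0748).

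SEMA3C, which signals through both neuropilins (chromosome 7, 80742538 to 80922389), was at 7.28, 14.2 and 12.8 CPM in Con and 15.6, 14.5 and 17.2 CPM in Model (log2 fold change 0.47 ± 0.20, SE, adjusted p = 0.106, not passed). FUCO-0.5 held 16.4, 13.3 and 19.2 CPM and FUCO-1 12.6, 16.4 and 11 CPM, both overlapping Model. FUCO-2 held 25.4, 17.9 and 20.9 CPM, all above Model, though the log2 fold change of 0.44 ± 0.19 (SE) did not pass (adjusted p = 0.0983). RES held 20.2, 20.2 and 28.4 CPM, also all above Model, and passed (0.54 ± 0.18, SE, adjusted p = 0.0168). That call was lost without RES replicate 3 (log2 fold change 0.36, adjusted p = 0.140) or Model replicate 2 (adjusted p = 0.0654), and with DESeq2 (adjusted p = 0.0646). Between the FUCO doses, FUCO-2 was above FUCO-1 (0.68 ± 0.19, SE, adjusted p = 0.0309).

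SEMA3F, a repellent ligand that prefers NRP2 (chromosome 3, 50155058 to 50189075), fell with RES alone among the 5 main comparisons. It was at 52.8, 43.5 and 44.2 CPM in Con, 42.8, 44.1 and 42.8 in Model, and 36.4 to 47.1 CPM over the 9 FUCO libraries. RES held 25.0, 24.0 and 22.9 CPM, below every other library. The log2 fold change against Model was −0.85 ± 0.10 (SE, adjusted p = 6.98e-08), and lay between −0.88 and −0.82 under the alternatives. SEMA3F overlaps the transcript SEMA3F-AS1, which had 15 to 66 counts, and whether the counting used the strand is not stated, so reads of the pair cannot be told apart.

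PLXND1, the plexin that binds SEMA3E (chromosome 3, 129555214 to 129606676), was at 106, 107 and 101 CPM in Con and 91.8, 86.6 and 83.1 CPM in Model, with no overlap (log2 fold change −0.27 ± 0.09, SE, adjusted p = 0.0420). This call was lost on leaving out any 1 of the 6 libraries (adjusted p = 0.0533 to 0.157). FUCO-0.5 held 88.1, 83.8 and 101 CPM, FUCO-1 95.1, 95.6 and 103 CPM, and FUCO-2 145, 114 and 108 CPM. FUCO-2 was above every library of Con and Model and rose against Model (0.49 ± 0.09, SE, adjusted p = 0.000394). Without FUCO-2 replicate 1, the highest library, the rise was smaller and still passed, as it did under all other alternatives (log2 fold changes 0.35 to 0.57). RES held 98.3, 98.5 and 96.9 CPM, above Model without passing (0.17 ± 0.09, SE, adjusted p = 0.125).

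PLXNA1, a partner of neuropilins in semaphorin receptors (chromosome 3, 126983115 to 127037389), passed in none of the 5 main comparisons. It was at 135, 134 and 137 CPM in Con and 128, 136 and 121 CPM in Model, and FUCO-0.5 (114, 117 and 139) and FUCO-1 (123, 132 and 142 CPM) overlapped Model. FUCO-2 held 193, 144 and 129 CPM, where replicate 1 was the highest of all 18 libraries. The log2 fold change of FUCO-2 against Model was 0.28 ± 0.10 (SE, adjusted p = 0.0607), and 0.09 without that replicate (adjusted p = 0.494). RES held 107, 107 and 114 CPM, all below Model (−0.23 ± 0.10, SE, adjusted p = 0.0701).

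NRP1, the neuropilin bound by SEMA3A, SEMA3C and VEGF (chromosome 10, 33177493 to 33334667, minus strand), stepped down with the FUCO dose and was lowest with RES. It was at 100, 119 and 124 CPM in Con and 99.3, 108 and 93.8 CPM in Model. The FUCO libraries were at 99.6, 98.5 and 91.9 CPM (FUCO-0.5), 84.3, 86.3 and 76.4 CPM (FUCO-1) and 63.4, 71.5 and 71.1 CPM (FUCO-2). RES held 53.3, 52.5 and 52.6 CPM. From FUCO-0.5 through FUCO-1 and FUCO-2 to RES no library of a group overlapped the next, whereas Con, Model and FUCO-0.5 overlapped their neighbours.

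Against Model, the log2 fold change of NRP1 was −0.05 ± 0.08 (SE, adjusted p = 0.876) in FUCO-0.5, −0.28 ± 0.08 (SE, adjusted p = 0.0522) in FUCO-1, −0.55 ± 0.08 (SE, adjusted p = 4.25e-05) in FUCO-2 and −0.93 ± 0.08 (SE, adjusted p = 1.39e-09) in RES. The FUCO-2 and RES falls passed under every alternative, and the FUCO-1 value passed with DESeq2 (adjusted p = 0.0220). Neither single step between doses passed: FUCO-1 against FUCO-0.5 was −0.23 ± 0.08 (SE, adjusted p = 0.320) and FUCO-2 against FUCO-1 was −0.26 ± 0.08 (SE, adjusted p = 0.0553). NRP1 was below Con in all 3 FUCO groups, by 0.24, 0.48 and 0.74 on the log2 scale (adjusted p = 0.0305, 0.000165 and 3.38e-07). The median hepatocyte marker sum also stepped down over these groups, from 45213 to 42210, 33803 and 14129 CPM, and its part in the fall of NRP1 was not tested.

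NRP2, the neuropilin preferred by SEMA3F (chromosome 2, 205682501 to 205798131, with the sequence printed above), moved opposite to NRP1 in FUCO-2 and RES against Model. In Model against Con both neuropilins were lower, and neither passed. NRP2 was low in all groups. It was at 1.97, 2.63 and 1.73 CPM in Con and 0.932, 1.56 and 1.57 CPM in Model (log2 fold change −0.63 ± 0.27, SE, adjusted p = 0.120, not passed). FUCO-0.5 held 1.43, 1.2 and 2.07 CPM and FUCO-1 2.13, 2.35 and 1.37 CPM, both overlapping Model. FUCO-2 held 3.28, 3.41 and 2.31 CPM and RES 3.43, 3.55 and 4.48 CPM, all above Model. Both were DEGs against Model (1.15 ± 0.26, SE, adjusted p = 0.00271, and 1.49 ± 0.25, SE, adjusted p = 2.06e-05). The adjusted p passed under every alternative, while the FUCO-2 fold change was 0.94, under the DEG threshold, without Model replicate 1. In RES NRP2 also rose against Con (0.86 ± 0.23, SE, adjusted p = 0.00256), while FUCO-2 overlapped Con (0.52 ± 0.24, SE, adjusted p = 0.124).

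**Figure D2:**
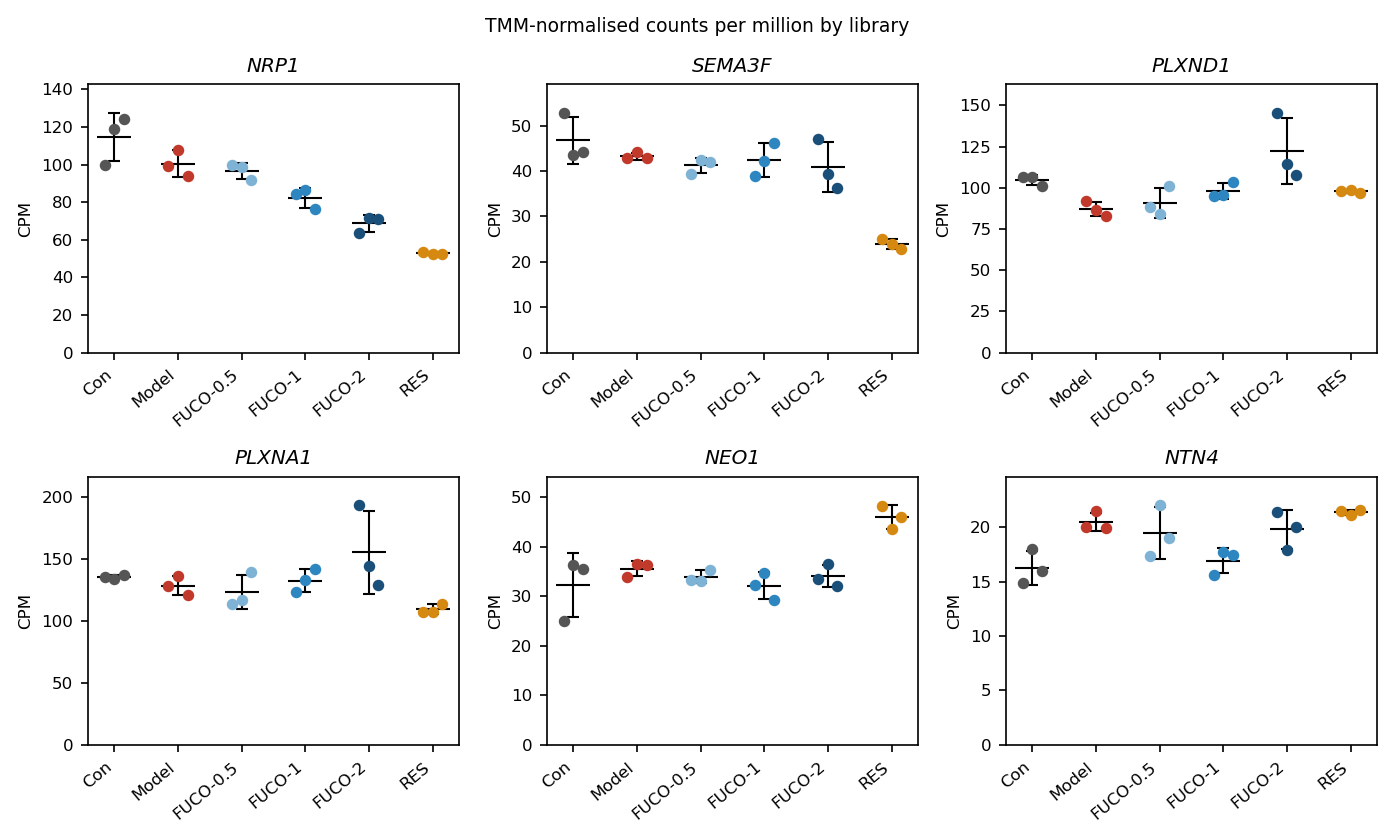
Level of NRP1, SEMA3F, PLXND1, PLXNA1, NEO1 and NTN4 in CPM (y axis, from 0) in the 3 libraries of each group (x axis). Points are libraries, wide bars means and whiskers 1 SD. NRP1 runs from 100 to 124 CPM in Con down to 52.5 to 53.3 CPM in RES, and SEMA3F stays at 36.4 CPM or more outside RES.

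Counted over the 9 genes other than UNC5B, Model against Con had 2 higher (NTN4 and SEMA3E) and 1 lower (PLXND1), where 17.6% of all genes passed. In 3 of the 9 the Model libraries were all higher and in 2 all lower, against 35.7% of all genes without overlap. FUCO-0.5 against Model had 0 that passed with edgeR (1.45% of all genes), 0 at an unadjusted p under 0.05 and 0 with DESeq2, and 1 without overlap (19.6%), which was lower. FUCO-1 against Model had 1 lower, SEMA3E (3.21%), and 4 without overlap (23.3%). FUCO-2 against Model had 3 higher and 1 lower (20.5%), and 5 without overlap (36.3%). RES against Model had 4 higher and 2 lower (49.4%), and 8 without overlap (64%). Of the 9 genes 1, 0, 1, 1 and 2 were DEGs in these comparisons in turn, against 1.95%, 0.268%, 0.495%, 1.6% and 9.91% of all genes. As the list was chosen with such results known, nothing is read from these shares. The median log2 fold change of the 9 genes was −0.08, −0.05, −0.15, 0.28 and 0.17 in these comparisons in turn. The median of all genes lay between −0.00167 and 0.00960, and nothing is read from these medians either.

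**Figure D3:**
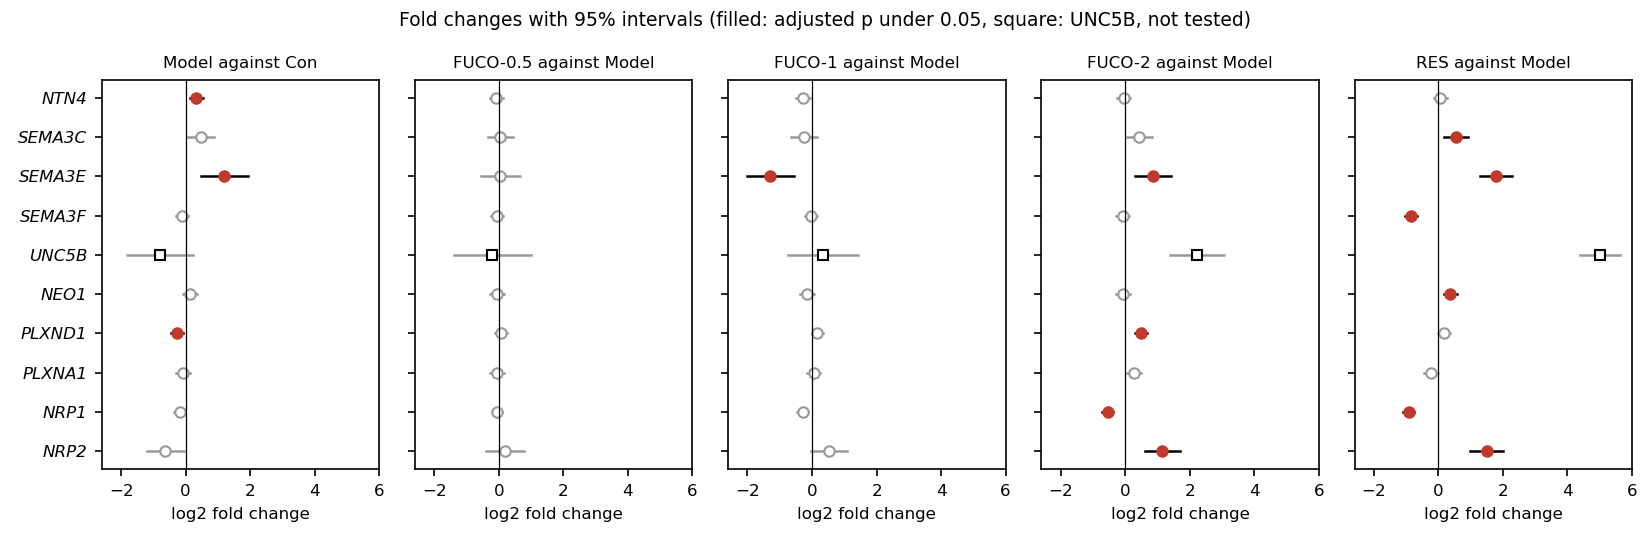
Log2 fold change (x axis) of the 10 genes (y axis) in 5 comparisons, with 95% intervals from the edgeR fit. Filled points had an adjusted p under 0.05. Open squares are UNC5B, shown as a description without a test. UNC5B extends to 5.0 in RES against Model, and no point is filled in FUCO-0.5 against Model. The last 4 panels share the Model libraries.

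Against Con, again over the 9 genes other than UNC5B, FUCO-0.5 had 1 higher (SEMA3E, 1.24 ± 0.35, SE, adjusted p = 0.0120) and 1 lower (NRP1), with 21.9% of all genes passing. Without Con replicate 3 none passed. SEMA3E also no longer passed without Con replicate 2 or FUCO-0.5 replicate 3, and NRP1 without any library of these groups except Con replicate 1. FUCO-1 had 1 lower, NRP1 (18.3%). FUCO-2 had 3 higher, SEMA3E, SEMA3C and NTN4, and 1 lower, NRP1 (24.8%). RES had 5 higher and 3 lower (57.3%), all of the 9 but PLXND1. FUCO-1 against FUCO-0.5 had 0 that passed with edgeR (0.00687% of all genes), 0 with DESeq2 and 2 at an unadjusted p under 0.05, SEMA3E and NRP1. FUCO-2 against FUCO-1 had 3 higher, SEMA3E, SEMA3C and PLXND1, and 0 lower (6.3% of all genes). With FUCO-1 replicate 1, FUCO-1 replicate 3 or FUCO-2 replicate 1 left out, SEMA3E alone of the 9 passed, and PLXND1 also no longer passed without FUCO-1 replicate 2.

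The wider set held 115 other guidance genes, of which 85 were tested. In Model against Con 8 were higher and 10 lower (8.43% and 9.12% of all genes). RND1, a small GTPase that binds plexins, rose from 28.7 ± 8.80 to 66.3 ± 6.10 CPM (mean ± SD; log2 fold change 1.21 ± 0.18, SE, adjusted p = 5.31e-05), and its relative RND2 fell from 16.2 ± 2.86 to 6.18 ± 0.341 CPM (−1.39 ± 0.14, SE, adjusted p = 2.35e-07). The transmembrane semaphorin SEMA6B (1.09 ± 0.17) and the receptor EPHA10 (0.92 ± 0.29, SE) were also higher. The VEGF family ligand PGF (−0.81 ± 0.10) and the Robo ligand SLIT2 (−0.61 ± 0.12, SE) were lower.

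With FUCO-0.5 against Model, 0 of the 85 were higher and 3 lower (0.289% and 1.16% of all genes): RND1, PGF and RND3. RND1 stood at 40.2 ± 2.30 CPM (−0.72 ± 0.18, SE, adjusted p = 0.0375), and 0 to 1 of the 85 passed when any 1 library of these groups was left out. With FUCO-1, 0 were higher and 6 lower (0.893% and 2.32%), among them RND1 (−0.82 ± 0.18), RND3 (−0.62 ± 0.10) and the Slit receptor ROBO2 (−0.49 ± 0.11, SE). Of the 85, 3 passed without Model replicate 3 or FUCO-1 replicate 1. With FUCO-2, 10 were higher and 11 lower (10.8% and 9.71%).

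NTN1, the classical netrin and a ligand of UNC5B, rose from 13.8 ± 2.09 CPM in Model to 26.1 ± 3.6 CPM in FUCO-2 (0.92 ± 0.14, SE, adjusted p = 5.94e-05) and to 23.2 ± 0.989 CPM in RES (0.74 ± 0.14, SE, adjusted p = 0.000110). SEMA5A (1.04 ± 0.19) and the actin-binding ABLIM3 (0.67 ± 0.12, SE) rose in FUCO-2 as well. MAGED1, which binds UNC5 receptors, fell from 399 ± 14.9 to 200 ± 13.7 CPM in FUCO-2 (−1.0 ± 0.08, SE, adjusted p = 5.67e-09). ROBO2 (−0.79 ± 0.11) and the GTPase CDC42 (−0.69 ± 0.18, SE) also fell there. CDC42 was counted at a low level, 2.79 ± 0.392 CPM in FUCO-2 against 4.52 ± 0.187 CPM in Model. The multi-mapping settings are not given, and whether these counts hold all CDC42 reads was not tested.

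With RES, 15 of the 85 were higher and 40 lower (24.4% and 25.1% of all genes) and the median log2 fold change was −0.22. Of 15 semaphorins 3 were higher and 8 lower, of 6 plexins 1 and 4, and of 2 genes in the netrin receptor list 0 and 2. Of 8 netrins, RGMs and FLRTs 3 were higher and 3 lower, of 30 intracellular transducers 4 and 14, and of 5 neuropilin partners 1 and 2. Of 4 Slit and Robo genes 1 was higher and 2 lower, and of 15 ephrins and Eph receptors 2 and 5. SEMA3A, a ligand of NRP1, rose from 7.62 ± 0.981 to 16.7 ± 1.29 CPM (1.13 ± 0.13, SE, adjusted p = 1.89e-07), and NTNG1, a membrane-bound netrin relative, from 0.969 ± 0.0213 to 1.91 ± 0.288 CPM (0.97 ± 0.29, SE). SEMA3G fell from 18 ± 0.867 to 3.20 ± 0.626 CPM (−2.47 ± 0.14, SE, adjusted p = 3.44e-13), RND2 from 6.18 ± 0.341 to 0.675 ± 0.123 CPM (−3.20 ± 0.22, SE) and ROBO2 from 22.1 ± 0.386 to 5.22 ± 0.326 CPM (−2.08 ± 0.12, SE). UNC5A and the UNC5-like UNC5CL, the 2 genes tested of the 7 in the netrin receptor list, were both lower while UNC5B was higher. UNC5CL went from a mean of 36.5 CPM in Model to 13.9 CPM in RES. UNC5A was near the floor, with 0.457 CPM in Model (8 to 9 counts) and 0.152 CPM in RES (2 to 4 counts). The other genes of that list did not pass the filter on low counts.

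**Figure D4:**
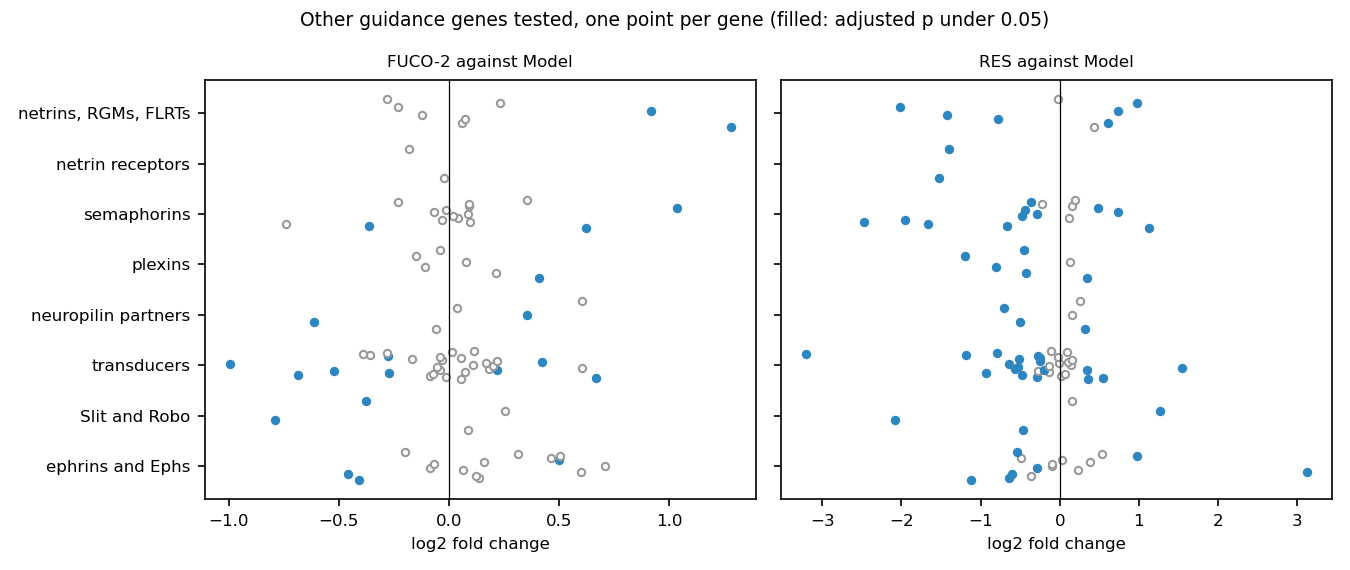
Log2 fold change (x axis) of the 85 other guidance genes tested, 1 point a gene, by list (y axis), in FUCO-2 and RES against the same Model libraries. Filled points had an adjusted p under 0.05. In RES 40 filled points lie below 0 and 15 above, and in FUCO-2 11 below and 10 above.

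The genes whose log2 CPM followed UNC5B most closely over the 18 libraries, of 13067 with a mean of at least 1 CPM, were TACC2 (Pearson r = 0.969), SETD7 (0.962), NIBAN1 (0.961), PRNP (0.959) and CNNM4 (0.959). In the means of Model, FUCO-2 and RES, NIBAN1 went from 3.07 to 5.59 and 43.2 CPM, and PRNP from 22.9 to 32.9 and 95.3 CPM. TACC2 went from 25.6 to 30.8 and 40.7 CPM, SETD7 from 67.6 to 85.7 and 132 CPM, and CNNM4 from 18.4 to 24.5 and 33.2 CPM. These changes were smaller than that of UNC5B, from 0.294 to 1.41 and 9.61 CPM, as r does not measure the size of a change. The RES libraries weigh heavily in these values, and over the 15 other libraries r was 0.848 for TACC2, 0.791 for SETD7, 0.831 for NIBAN1, 0.784 for PRNP and 0.817 for CNNM4. The libraries share groups, so r is given as a description.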

How the data were processed

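Poly(A)-enriched RNA of Hep3B cells was sequenced by the authors in 18 libraries, 6 groups of 3, in a single run. Their pipeline was fastp for trimming, STAR on GRCh38.p14 for alignment and featureCounts for gene counts, and the raw counts were deposited by the authors without normalization. Strand and multi-mapping settings are not given in the sources used here. All 18 columns were used, and groups came from the sample titles. Depth was 16916688 to 23083498 counts a library, so a level of 0.2 CPM rests on few reads.

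Genes were filtered with filterByExpr (minimum count 10, minimum total 15), normalised by TMM and tested with edgeR 4.0.16 in R 4.3.3 (quasi-likelihood, group as the only term, prior count 0.125), with 14557 of 36684 genes tested, holding 99.9% of counts. The SE is the absolute log2 fold change divided by the square root of the F statistic, and intervals are at 95%. The fit was also run on counts simulated from its own dispersions, with changes set only in genes with a mean over 1 CPM. That run checks the code and cannot show whether the real counts meet the assumptions of the fit. The 10 genes, the wider lists and the motifs were chosen with earlier results of these data known. Besides the 10, the text names the 3 largest rises and falls among other guidance genes per comparison (adjusted p under 0.05, mean of at least 1 CPM, no overlap) and the 5 genes most correlated with UNC5B. UNC5A and UNC5CL were named after their values were seen, as the whole of a small list. Alternatives were DESeq2 1.42.0, RLE normalization, omitting the low-count filter, a minimum of 10 counts in each library, 2-group fits, a replicate block, and leaving out each library in turn. Transcript lengths were taken from GENCODE v44 canonical transcripts and positions from RefSeq.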

Additional observations from a re-analysis of the deposited data

How the results depend on the processing

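The falls of NRP1 and SEMA3F and the rises of SEMA3E, NRP2 and NEO1 with RES, and the rises of NRP2 and PLXND1 and the fall of NRP1 with FUCO-2, passed in every alternative that kept the gene. UNC5B is shown without a test, so its calls are not read as results below. The filter of at least 10 counts in every library drops UNC5B and SEMA3E. With it, 0 of the 10 genes passed in FUCO-1 against Model, 3 in FUCO-2 against Model, 1 in FUCO-0.5 against Con, 3 in FUCO-2 against Con and 2 in FUCO-2 against FUCO-1. In FUCO-1 against Model 2 passed in place of 1 with DESeq2, without a filter, in 2-group fits and with the replicate block, NRP1 being the addition, and 10 (no filter) or 11 (2 groups) of the other guidance genes in place of 6. Two-group fits gave 1 in FUCO-0.5 against Con, and no filter gave 1 in FUCO-1 against FUCO-0.5.

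The sample titles do not say whether libraries of the same replicate number were paired. The correlation of same-numbered deviations was under 0.1 for at least 1 pair in every comparison made, which cannot decide it. It ran from 0.0935 to 0.126 in FUCO-2 against Model and from 0.0584 to 0.192 in FUCO-1 against FUCO-0.5. All 6 libraries correlated best with their own number only in FUCO-2 against Model, and 2 to 5 did in the others, which is a hint from the data and not the design. The replicate block moved no other count of the 10 genes by over 1.5 times, with UNC5B included in these counts as a description only.

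Leaving out 1 library at a time gave 0 to 2 of the 10 genes in Model against Con, 0 to 1 in FUCO-1 against Model and 0 to 2 in FUCO-0.5 against Con. In FUCO-2 against FUCO-1, UNC5B aside, SEMA3E alone passed when some single libraries were left out. Leaving out 1 library gave 0 to 1 and 3 to 5 of the other guidance genes in FUCO-0.5 and FUCO-1 against Model.
It also turned the sign of 12 log2 fold changes, none of which passed: in Model against Con NEO1 −0.017 to 0.23, in FUCO-0.5 against Model NRP2 −0.043 to 0.36, SEMA3C −0.086 to 0.18, UNC5B −0.48 to 0.40, NRP1 −0.10 to 0.0027, NTN4 −0.17 to 0.0042, SEMA3E −0.22 to 0.23 and PLXND1 −0.019 to 0.12, in FUCO-1 against Model SEMA3F −0.093 to 0.036, UNC5B −0.061 to 0.95 and PLXNA1 −0.0051 to 0.10, in FUCO-2 against Model NTN4 −0.11 to 0.019. Under the alternatives 14 values changed sign, 27 lost and 13 gained the threshold. Levels such as those of UNC5B in the 4 groups other than FUCO-2 and RES rest on 3 to 11 counts and limit any difference among those groups.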
